A study of Mus musculus with 4 samples.

Results

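The 7 genes described here carry out or control MHC class II antigen presentation, and they were taken by symbol from a table of 16230 genes. They are the class II chains H2-Aa, H2-Ab1 and H2-Eb1, the invariant chain Cd74, the peptide-exchange subunits H2-DMa and H2-DMb1, and the transactivator Ciita. All 7 were in the table, and all 7 had a mean of at least 1 FPKM, the level above which genes were tested. FPKM are fragments scaled to transcript length and to the fragments mapped in the library. RNA had been sequenced from splenic T cells sorted as CD3+CD4+, from Rag-/- mice with colitis, 8 weeks after transfer of naive CD4 T cells. The donor cells were CD4creERafl/fl, in which Cre driven from Cd4 is meant to delete the loxP-flanked part of the estrogen receptor gene Esr1 in T cells (2 libraries, labelled CD4creERafl/fl 1 and 2), or ERafl/fl, with the flanked alleles and no Cre (2 control libraries, ERafl/fl 1 and 2). All hosts of both groups were Rag-/-, which make no mature T or B cells of their own but keep macrophages, dendritic cells and NK cells. The design asks which transcripts differ when the transferred T cells lack the receptor. The labels give no age, sex or strain, and do not say whether replicate libraries stand for different mice. The p-values therefore describe how these 4 libraries scatter, which may be technical.

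MHC class II molecules are pairs of an alpha and a beta chain that show peptides from endosomes to CD4 T cells. The invariant chain holds the new pair and guides it to the endosome, where its last fragment is exchanged for an antigenic peptide by H2-DM. CIITA is the coactivator that class II promoters need, and professional antigen-presenting cells (dendritic cells, B cells, macrophages) express these genes strongly, while resting mouse T cells express little class II of their own.

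Depth was low. The step of low FPKM values of genes with 1 transcript corresponded to an estimated 511000 and 570000 fragments in the libraries labelled CD4creERafl/fl 1 and 2, and to 712000 and 679000 in ERafl/fl 1 and 2. On a transcript of 1500 bases, 3 fragments, the upper limit that a count of 0 allows, were then worth 2.91 to 4.05 FPKM. Such limits reflect counting error alone. Esr1 was listed at 0 and had 1.96 FPKM in the libraries labelled CD4creERafl/fl 1 and 2, against 0.23 FPKM and a listed 0 in ERafl/fl 1 and 2. These values rest on an estimated 7 and 1.0 fragments, and fragments from outside the flanked part count too, so Esr1 does not check the labels.

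All 7 genes had higher values in both libraries labelled CD4creERafl/fl than in both ERafl/fl libraries. Their fold changes on log2(FPKM + 1) ranged from 2.17 for H2-DMa to 4.09 for H2-Aa and H2-Ab1, with a median of 3.73, where the median of all 12896 genes tested was -0.07. None passed limma's test at an adjusted p under 0.05 (0 of 7, adjusted p 0.12 to 0.341, Benjamini-Hochberg over all genes), while 6 of 7 had an unadjusted p under 0.05 and a higher level, as did 9.1% of all genes tested (6.8% had such a p and a lower level). In the same test 0.0155% of all genes were called higher and 0.0388% lower. The direction without overlap, seen for 7 of 7, was found in 23.2% of all genes tested. The 2 ERafl/fl libraries were far apart for 6 of the 7 genes, and this spread is part of every test given here.

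Cd74, the invariant chain (NCBI gene 16149; GRCm38 chromosome 18, 60803849 to 60812652), had 2406 and 2251 FPKM in the libraries labelled CD4creERafl/fl 1 and 2, against 37.4 and 636 FPKM in ERafl/fl 1 and 2. It was the highest of the 7 genes in each library, ranking 12 and 13 of 16230 genes in the libraries labelled CD4creERafl/fl, against 1801 and 91 in ERafl/fl 1 and 2. The difference was 3.90 ± 1.23 on the log2 scale (SE, limma adjusted p = 0.236).

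The 3 class II chains showed the same order of libraries, with ERafl/fl 1 close to the floor and ERafl/fl 2 between it and the other group. H2-Aa, the alpha chain of I-A (NCBI gene 14960; chromosome 17, 34282744 to 34287823), had 564 and 762 FPKM in the libraries labelled CD4creERafl/fl 1 and 2, against 4.04 and 292 in ERafl/fl 1 and 2. H2-Ab1, the beta chain of I-A (NCBI gene 14961; chromosome 17, 34263227 to 34269418), had 877 and 905 FPKM in the libraries labelled CD4creERafl/fl, against 9.75 and 253 in ERafl/fl 1 and 2. H2-Eb1, the beta chain of I-E (NCBI gene 14969; chromosome 17, 34305867 to 34316674), had 417 and 518 FPKM in the libraries labelled CD4creERafl/fl, against 6.05 and 173.9 in ERafl/fl 1 and 2. In ERafl/fl 1 these levels rested on an estimated 3.1, 8.1 and 7 fragments of H2-Aa, H2-Ab1 and H2-Eb1, and in every other library on at least 191. The log2 fold changes were 4.09 ± 1.77 for H2-Aa (SE, limma adjusted p = 0.341), 4.09 ± 1.38 for H2-Ab1 (adjusted p = 0.256) and 3.73 ± 1.41 for H2-Eb1 (adjusted p = 0.297).

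The 2 chains of H2-DM, the peptide-exchange factor, were lower in level and differed in how the ERafl/fl libraries behaved. H2-DMa (NCBI gene 14998; chromosome 17, 34119693 to 34139101) had 33.9 and 37.0 FPKM in the libraries labelled CD4creERafl/fl 1 and 2, against 6.09 and 8.21 in ERafl/fl 1 and 2. It was the 1 gene of the 7 whose ERafl/fl libraries lay close together, with means of 35.4 ± 2.17 FPKM in the libraries labelled CD4creERafl/fl and 7.15 ± 1.5 FPKM in ERafl/fl (SD, n = 2 each). Its fold change was the smallest of the 7 and had the smallest adjusted p, at 2.17 ± 0.35 on the log2 scale (SE, limma adjusted p = 0.12). H2-DMb1 (NCBI gene 14999; chromosome 17, 34153191 to 34160229) had 39.3 and 44.4 FPKM in the libraries labelled CD4creERafl/fl, against 1.13 and 10.05 in ERafl/fl 1 and 2, with a log2 fold change of 3.14 ± 0.79 (SE, limma adjusted p = 0.179). The value in ERafl/fl 1 is about 1.1 fragments. H2-DMb1 shares 1081 bases at 95% identity or more with its paralog H2-DMb2, so the split between them is uncertain. The sum of both genes was 81.2 and 69.3 FPKM in the libraries labelled CD4creERafl/fl 1 and 2, against 1.13 and 20.9 in ERafl/fl 1 and 2, with the libraries in the same arrangement. H2-DMa shares 360 exon bases with Brd2 on the opposite strand, and whether the authors counted by strand is not stated. Brd2 had 41.6 and 44.2 FPKM in the libraries labelled CD4creERafl/fl, against 56.1 and 44.1 in ERafl/fl 1 and 2. In ERafl/fl 1 and 2 these are an estimated 184 and 138 fragments of Brd2, beside 7.0 and 9.0 of H2-DMa. The part of Brd2 fragments in the H2-DMa value was not tested.

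Ciita, the class II transactivator (NCBI gene 12265; chromosome 16, 10480014 to 10531064), was the lowest of the 7 in both libraries labelled CD4creERafl/fl, at 21.4 and 21.6 FPKM, against 0.55 and 8.76 in ERafl/fl 1 and 2. Its log2 fold change was 2.53 ± 0.88 (SE, limma adjusted p = 0.263). On its longest annotated transcript of 6007 bases the ERafl/fl values are about 2.3 and 35.4 fragments. The gene starts from several promoters used by different cell types and has 5 transcripts in the table, which its FPKM value combines. Its exons overlap those of Dexi on the opposite strand over 329 bases. Dexi had 256 and 208 FPKM in the libraries labelled CD4creERafl/fl 1 and 2, against 6.23 and 57.7 in ERafl/fl 1 and 2, so the gene that shares these bases was higher in the same libraries and stood at a higher level in FPKM. The part of Dexi fragments in the Ciita value was not tested.

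**Figure D1:**
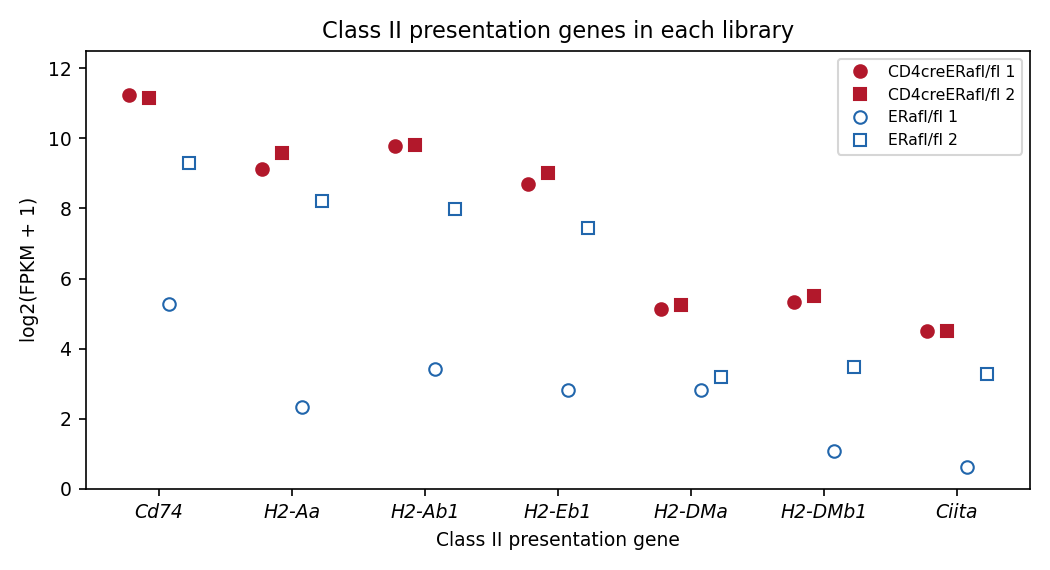
Level of each class II presentation gene, as log2(FPKM + 1), in the 4 libraries. Filled points are the libraries labelled CD4creERafl/fl 1 (circle) and 2 (square), open points ERafl/fl 1 (circle) and 2 (square). The filled points lie above both open points for all 7 genes, and the open points lie far apart for all but H2-DMa.

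Without ERafl/fl 1, the log2 fold changes of the 7 genes were between 1.16 and 1.98 (adjusted p 0.438 to 0.538 in limma). Without ERafl/fl 2 they were between 2.36 and 7.03 (adjusted p 0.216 to 0.243). In both fits the spread comes from the pair labelled CD4creERafl/fl, moderated over all genes, and the lone ERafl/fl library is assumed to vary like it. H2-DMa moved least, with 1.98 and 2.36. H2-Aa moved most, with 1.16 and 7.03. Against ERafl/fl 2 alone, the mean of the libraries labelled CD4creERafl/fl was 2.27-fold higher for H2-Aa, 2.46-fold for Ciita, 2.69-fold for H2-Eb1, 3.52-fold for H2-Ab1, 3.66-fold for Cd74, 4.16-fold for H2-DMb1 and 4.31-fold for H2-DMa. The ratios of H2-DMb1 and H2-DMa were the highest, but rest on an estimated 9.2 and 9.0 fragments in ERafl/fl 2. Their place above Cd74 and H2-Ab1 is therefore not resolved. Against ERafl/fl 1, 779 fragments of H2-Aa in the libraries labelled CD4creERafl/fl faced 3, a ratio of 171 per fragment sequenced (95% exact interval 58.3 to 831). For H2-DMb1 the counts were 61 and 1, a ratio of 40.2 (95% exact interval 6.95 to 1613). The intervals cover counting error only.

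A fit with voom weights on fragments recovered from the FPKM of genes with 1 transcript was added after the data were seen. All 5 testable genes had positive fold changes in it, and 3 were called at an adjusted p under 0.05. These were H2-Ab1 (log2 fold change 4.15 ± 0.85 SE, adjusted p = 0.0217), H2-Eb1 (3.82 ± 0.88, adjusted p = 0.0358) and H2-DMa (2.27 ± 0.53, adjusted p = 0.0389). H2-Aa (4.21 ± 1.07, adjusted p = 0.0543) and H2-DMb1 (3.45 ± 1.01, adjusted p = 0.096) did not pass, and Cd74 and Ciita have several transcripts and were not in this fit. It called 2.25% of 6269 genes higher and 0.782% lower. These calls are not made by limma on log2(FPKM + 1).

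In the libraries labelled CD4creERafl/fl the order of levels was the same in both: Cd74, H2-Ab1, H2-Aa, H2-Eb1, H2-DMb1, H2-DMa and Ciita, from high to low in FPKM. Mean levels were 2328 ± 109, 891 ± 19.8, 663 ± 140.2, 468 ± 71.5, 41.8 ± 3.61, 35.4 ± 2.17 and 21.5 ± 0.12 FPKM (SD, n = 2). The mean ± SD of H2-Aa and H2-Eb1 overlapped, and those of the other neighbours did not. H2-DMb1 and H2-DMa rest on an estimated 27.2 and 27.8 fragments in the library labelled CD4creERafl/fl 1. In CD4creERafl/fl 2 they rest on 34.3 and 33.9, so the order of these 2 genes is not resolved. In the ERafl/fl libraries the SD exceeded the mean for every gene but H2-DMa, a spread between libraries that does not give the order within a library. In both, Cd74 was highest and the I-A and I-E chains stood above H2-DMb1 and Ciita. The order among those chains and the place of H2-DMa differed between the ERafl/fl libraries. In ERafl/fl 1 the levels of all but Cd74 rest on few fragments, so the order there is not resolved in full. Together the 7 genes held 0.974% and 1.01% of all FPKM in the libraries labelled CD4creERafl/fl 1 and 2, against 0.0146% and 0.307% in ERafl/fl 1 and 2, and Cd74 held 46.0% to 57.5% of their sum in every library.

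Between Cd74 and the class II chains, ratios varied less over the libraries than the levels did. Cd74 per H2-Ab1, both in FPKM, was 2.74 and 2.49 in the libraries labelled CD4creERafl/fl 1 and 2, against 3.83 and 2.51 in ERafl/fl 1 and 2. H2-Eb1 per H2-Ab1 was 0.475 and 0.572 in the libraries labelled CD4creERafl/fl, against 0.621 and 0.687 in ERafl/fl 1 and 2. H2-Aa per H2-Ab1, the 2 chains of I-A, was 0.643 and 0.842 in the libraries labelled CD4creERafl/fl, against 0.414 and 1.15 in ERafl/fl 1 and 2. H2-DMa did not keep such a ratio. H2-DMa per H2-Ab1 was 0.0386 and 0.0408 in the libraries labelled CD4creERafl/fl 1 and 2, against 0.625 and 0.0324 in ERafl/fl 1 and 2, a wider spread than in its own level. H2-DMa per H2-DMb1 was 0.863 and 0.832 in the libraries labelled CD4creERafl/fl 1 and 2 and 0.817 in ERafl/fl 2, but 5.39 in ERafl/fl 1, where it rests on an estimated 7 and 1.1 fragments.

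The other class II chains had the same direction. All 4 in the table were higher without overlap, where 23.2% of all genes were, with a median log2 fold change of 1.96, and 0 of 4 passed in limma (adjusted p 0.174 to 0.345). H2-Oa, a chain of the H2-DM inhibitor H2-O, had 24.8 and 34.3 FPKM in the libraries labelled CD4creERafl/fl 1 and 2, against 4.12 and 10.07 in ERafl/fl 1 and 2. H2-Ob, its partner, had 4.47 and 16.7 FPKM in the libraries labelled CD4creERafl/fl, against 0.54 and 3.37 in ERafl/fl 1 and 2. H2-Eb2, an I-E beta-like chain, had 8.76 and 9.82 FPKM in the libraries labelled CD4creERafl/fl, against 1.26 and 5.55 in ERafl/fl 1 and 2. H2-DMb2 had 42.0 and 24.9 FPKM in the libraries labelled CD4creERafl/fl, was listed at 0 in ERafl/fl 1 and had 10.9 in ERafl/fl 2. All 4 were lowest in ERafl/fl 1.

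The enzymes that prepare peptides and trim the invariant chain were higher too, and the components that bind class II promoters were not. All 6 genes of the processing list were higher without overlap, where 23.2% of all genes were, with a median log2 fold change of 2.60 and 0 of 6 passing in limma (adjusted p 0.149 to 0.191). Ctss, the cathepsin that trims the invariant chain, had 269 and 378 FPKM in the libraries labelled CD4creERafl/fl 1 and 2, against 30.9 and 91.8 in ERafl/fl 1 and 2. Lgmn, an asparaginyl endopeptidase, had 126.0 and 94.9 FPKM in the libraries labelled CD4creERafl/fl, against 3.07 and 18.5 in ERafl/fl 1 and 2. Ifi30, the lysosomal thiol reductase, had 214.5 and 141 FPKM in the libraries labelled CD4creERafl/fl, against 10.3 and 43.1 in ERafl/fl 1 and 2. Ctsb, cathepsin B, had 153.9 and 178 FPKM in the libraries labelled CD4creERafl/fl, against 12.6 and 50.5 in ERafl/fl 1 and 2. The sum of the 7 class II genes per sum of these enzymes was 4.34 and 4.49 in the libraries labelled CD4creERafl/fl 1 and 2, close to the 4.58 of ERafl/fl 2, and was 0.521 in ERafl/fl 1.

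The RFX, NF-Y and CREB subunits, which assemble with CIITA on class II promoters, had a median log2 fold change of -0.30 over 7 genes tested, with 0 called in limma (adjusted p 0.579 to 0.901). Of the 7, 2 had a higher mean and 5 a lower mean, and 3 were lower without overlap (Rfx5, Nfyc and Creb1), where 25.7% of all genes were. Rfx5, the DNA-binding subunit of RFX, had 6.14 and 7.21 FPKM in the libraries labelled CD4creERafl/fl 1 and 2, against 9.50 and 7.48 in ERafl/fl 1 and 2. Rfxank, its ankyrin-repeat partner, was far higher in level, with 179 and 226 FPKM in the libraries labelled CD4creERafl/fl, against 263 and 226 in ERafl/fl 1 and 2. Rfxap had 5.48 and 13.9 FPKM in the libraries labelled CD4creERafl/fl, against 6.56 and 6.88 in ERafl/fl 1 and 2. Nfya, an NF-Y subunit, had 14.2 and 4.40 FPKM in the libraries labelled CD4creERafl/fl, against 4.69 and 9.84 in ERafl/fl 1 and 2, so the groups overlapped. Within the machinery of class II expression, only Ciita among these promoter factors had the arrangement of libraries seen in the chains.

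Interferon gamma, which induces Ciita through JAK kinases in many cells, was measured alongside. Ifng itself had 15.1 and 4.51 FPKM in the libraries labelled CD4creERafl/fl 1 and 2, against 58.9 and 60.5 in ERafl/fl 1 and 2 (log2 fold change -2.69 ± 0.56 SE, limma adjusted p = 0.149), the opposite direction to Ciita. Its receptor chains Ifngr1 and Ifngr2 had log2 fold changes of 0.62 ± 0.36 and 0.57 ± 0.29 (SE, adjusted p = 0.456 and 0.415 in limma). Jak1, a kinase of the receptor, had -0.59 ± 0.35 (SE, adjusted p = 0.471). Of the 6 genes of this list 0 were called, 3 were higher and 3 lower without overlap (23.2% and 25.7% of all genes), and the median log2 fold change was -0.02.

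Genes that act on class II at the cell surface or beside it were mixed. Marchf1, the ligase that removes class II from the surface, had 10.7 and 15.3 FPKM in the libraries labelled CD4creERafl/fl 1 and 2, against 1.44 and 4.16 in ERafl/fl 1 and 2. Cd83, which counteracts that removal, had 13.1 and 22.7 FPKM in the libraries labelled CD4creERafl/fl, against 3.36 and 3.52 in ERafl/fl 1 and 2. Marchf8 had 2.75 and 5.77 FPKM in the libraries labelled CD4creERafl/fl, against 0.33 and 1.38 in ERafl/fl 1 and 2. All 3 genes of the turnover list were thus higher without overlap, where 23.2% of all genes were (median log2 fold change 1.96, 0 of 3 called, adjusted p 0.152 to 0.328 in limma). Of the costimulatory ligands, Cd86 had 26.7 and 31.0 FPKM in the libraries labelled CD4creERafl/fl, against 2.25 and 11.2 in ERafl/fl 1 and 2. Icosl had 21.0 and 26.6 FPKM in the libraries labelled CD4creERafl/fl, against 4.16 and 9.81 in ERafl/fl 1 and 2. Cd80 was listed at 0 and had 4.24 FPKM in the libraries labelled CD4creERafl/fl 1 and 2, against 0.85 and 1.78 in ERafl/fl 1 and 2. Cd40 was listed at 0 and had 5.65 FPKM in the libraries labelled CD4creERafl/fl 1 and 2, and was listed at 0 and had 3.79 FPKM in ERafl/fl 1 and 2. Both rest on at most 9.5 estimated fragments in a library, and a difference was not detectable at this depth. Of these 4 genes, 2 were higher without overlap, where 23.2% of all genes were, and 0 were called (adjusted p 0.2 to 0.996).

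**Figure D2:**
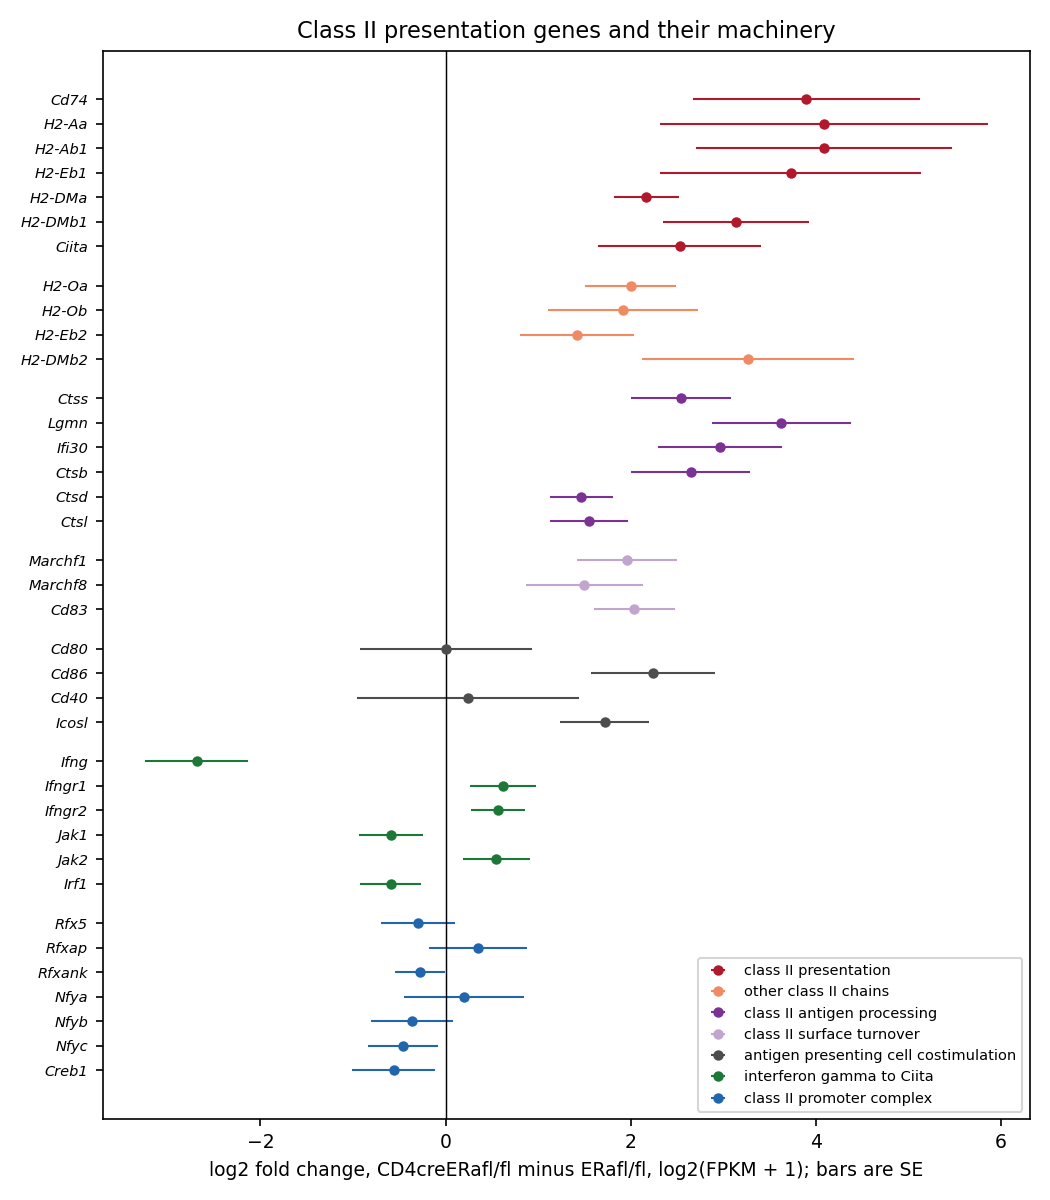
Fold change (log2) on log2(FPKM + 1), libraries labelled CD4creERafl/fl minus ERafl/fl, for the class II presentation genes and 6 lists of related genes, with the SE from limma as bars (2 libraries a group). The class II chains, processing enzymes and turnover genes lie to the right of 0, the promoter-binding subunits around 0, and Ifng to the left.

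Macrophage and most dendritic cell markers also had higher values in the libraries labelled CD4creERafl/fl, and T cell markers had lower values there. All libraries are nonetheless labelled as CD4 T cells. In bulk RNA, fewer cells of a type and less RNA per cell cannot be told apart. All 12 T cell markers were lower without overlap in the libraries labelled CD4creERafl/fl, where 25.7% of all genes were, with a summed level of 354 and 278 FPKM, against 1521 and 1239 in ERafl/fl 1 and 2. None of the 12 passed (adjusted p 0.079 to 0.365 in limma). Cd3d had 124 and 70.9 FPKM in the libraries labelled CD4creERafl/fl, against 177 and 146 in ERafl/fl 1 and 2. Cd3e had 9.81 and 10.07 FPKM in the libraries labelled CD4creERafl/fl, against 65.5 and 60.2 in ERafl/fl 1 and 2 (adjusted p = 0.082 in limma). All 15 macrophage and monocyte markers were higher without overlap, where 23.2% of all genes were, with a sum of 2694 and 3174 FPKM in the libraries labelled CD4creERafl/fl 1 and 2, against 99.3 and 466 in ERafl/fl 1 and 2. None of the 15 passed (adjusted p 0.0935 to 0.261 in limma), and 4 of them were listed at 0 in ERafl/fl 1. Csf1r, the receptor for macrophage growth factor, had 121 and 120 FPKM in the libraries labelled CD4creERafl/fl, against 2.94 and 22.3 in ERafl/fl 1 and 2. Adgre1, which encodes F4/80, had 48.3 and 43.9 FPKM in the libraries labelled CD4creERafl/fl, against a listed 0 and 5.53 in ERafl/fl 1 and 2.

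Of the 12 dendritic cell markers 8 were higher without overlap, where 23.2% of all genes were, with a sum of 279.5 and 308 FPKM in the libraries labelled CD4creERafl/fl 1 and 2, against 94.3 and 159 in ERafl/fl 1 and 2. None of the 12 passed (adjusted p 0.12 to 0.745 in limma), and 5 were listed at 0 in ERafl/fl 1 and 1 in ERafl/fl 2. Itgax, which encodes CD11c, had 48.9 and 56.9 FPKM in the libraries labelled CD4creERafl/fl, against 1.06 and 23.8 in ERafl/fl 1 and 2. Flt3, a receptor of dendritic cell progenitors and dendritic cells, had 15.1 and 22.4 FPKM in the libraries labelled CD4creERafl/fl, against a listed 0 and 6.93 in ERafl/fl 1 and 2. Xcr1, chosen after its values were seen, went the other way, with 46.7 and 48.5 FPKM in the libraries labelled CD4creERafl/fl, against 73.3 and 62.8 in ERafl/fl 1 and 2, and made up most of the list's sum in ERafl/fl 1. B cell markers were mixed, with 2 higher and 1 lower without overlap among 5 tested of 8 in the table, where 23.2% and 25.7% of all genes were. Ms4a1 was listed at 0 in 3 libraries and had 0.87 FPKM in the library labelled CD4creERafl/fl 2, and Cd79a was listed at 0 in 3 libraries and had 2.29 FPKM in ERafl/fl 2. Blnk had 8.57 and 13.7 FPKM in the libraries labelled CD4creERafl/fl, and was listed at 0 and had 2.87 in ERafl/fl 1 and 2. Cd79b had 6.76 and 4.55 FPKM in the libraries labelled CD4creERafl/fl, and was listed at 0 and had 8.91 in ERafl/fl 1 and 2. Fcer2a had at most 11.0 FPKM in the libraries labelled CD4creERafl/fl, against 17.5 and 16.6 in ERafl/fl 1 and 2. The sum over the 8 B cell markers in the table was 217 and 109 FPKM in the libraries labelled CD4creERafl/fl 1 and 2, against 70.6 and 97.3 in ERafl/fl 1 and 2. Most of it came from Cd22, with 199 and 76.3 FPKM in the libraries labelled CD4creERafl/fl, against 51.7 and 65.9 in ERafl/fl 1 and 2. Red cell transcripts were low in ERafl/fl 1 alone: the erythroid sum was 6490 and 5113 FPKM in the libraries labelled CD4creERafl/fl, against 222 and 8184 in ERafl/fl 1 and 2. Hbb-bs had 2744 and 2227 FPKM in the libraries labelled CD4creERafl/fl, against 83.3 and 3579 in ERafl/fl 1 and 2, and Hbb-bt had 527 and 385 FPKM in the libraries labelled CD4creERafl/fl, against 26.4 and 723 in ERafl/fl 1 and 2.

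The sum of the 7 class II genes was 4358 and 4540 FPKM in the libraries labelled CD4creERafl/fl 1 and 2, against 65.0 and 1382 in ERafl/fl 1 and 2. Its order of libraries, lowest in ERafl/fl 1 and then in ERafl/fl 2, was that of the macrophage and dendritic cell sums and not of the erythroid sum. Class II per macrophage marker sum was nonetheless not constant, at 1.62 and 1.43 in the libraries labelled CD4creERafl/fl 1 and 2, against 0.654 and 2.96 in ERafl/fl 1 and 2. Class II per dendritic cell marker sum was 15.6 and 14.7 in the libraries labelled CD4creERafl/fl, against 0.689 and 8.69 in ERafl/fl 1 and 2. H2-Ab1 per Itgax, both in FPKM, was 17.9 and 15.9 in the libraries labelled CD4creERafl/fl, against 9.20 and 10.6 in ERafl/fl 1 and 2. H2-Ab1 per Csf1r was 7.24 and 7.53 in the libraries labelled CD4creERafl/fl, against 3.32 and 11.3 in ERafl/fl 1 and 2. H2-Ab1 per Cd209a, a lectin gene of dendritic cells, was 24.0 and 19.1 in the libraries labelled CD4creERafl/fl and 82.7 in ERafl/fl 2, and Cd209a was listed at 0 in ERafl/fl 1. The part of these cell types in the class II levels was not tested.

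**Figure D3:**
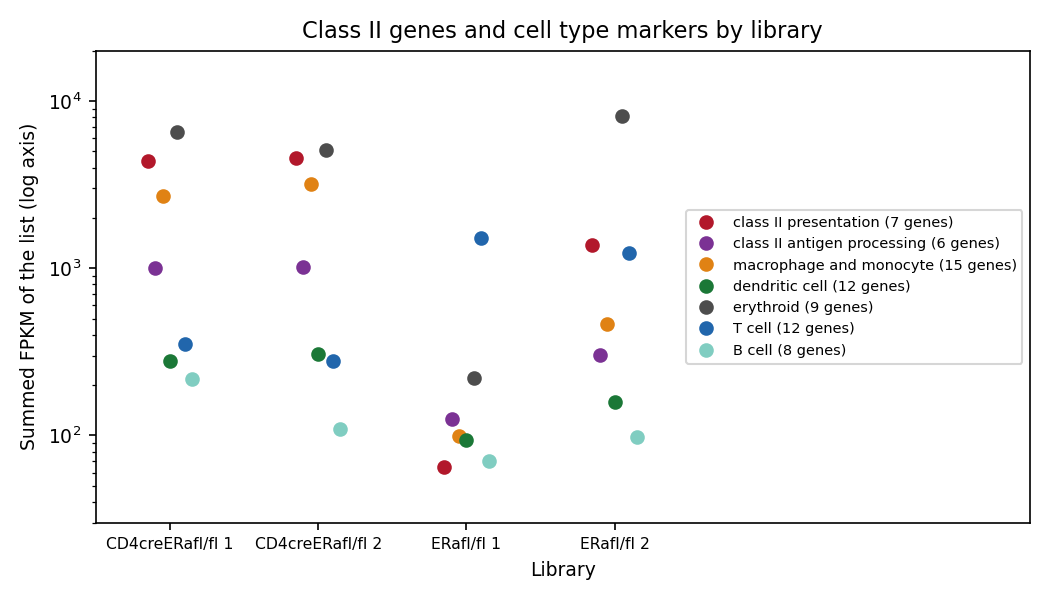
Summed FPKM (log axis) of the class II presentation genes and of lists of cell type markers and processing enzymes in each library, with the number of genes summed. Class II genes, macrophage markers and processing enzymes are high in the libraries labelled CD4creERafl/fl, lowest in ERafl/fl 1 and between in ERafl/fl 2, T cell markers are lower in the libraries labelled CD4creERafl/fl, and erythroid genes are low in ERafl/fl 1 alone.

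The 7 genes did not follow 1 profile equally closely. The distance of each gene's centred log2(FPKM + 1) over the 4 libraries from the median profile of the 7 was 0.29 for Cd74, 0.44 for H2-Eb1 and 0.53 for H2-Ab1, then 1.34 for H2-Aa and H2-DMb1, 1.58 for Ciita and 3.05 for H2-DMa. The 5 other genes nearest to that profile were Ear2 (distance 0.26), Blvrb (0.48), Fcer1g (0.51), C1qb (0.51) and AF251705 (0.52). In ERafl/fl 1, Ear2, Blvrb and AF251705 were listed at 0, and Fcer1g and C1qb rested on an estimated 1.0 and 2.0 fragments. The order of these 5 distances is therefore not resolved. Fcer1g encodes the signalling chain of Fc receptors, C1qb a complement subunit, Blvrb a biliverdin reductase and Ear2 a ribonuclease of the eosinophil-associated family. Fcer1g had 246 and 188 FPKM in the libraries labelled CD4creERafl/fl 1 and 2, against 2.18 and 54.9 in ERafl/fl 1 and 2. H2-Ab1 per C1qb, both in FPKM, was 3.27 and 4.70 in the libraries labelled CD4creERafl/fl 1 and 2, against 3.54 and 4.08 in ERafl/fl 1 and 2. C1qb was picked for lying near the profile, as H2-Ab1 does, so a steady ratio follows from that choice. Over 4 libraries the distance is a description.

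Of the 7 genes 5 lie within 197 kb of the MHC on chromosome 17 (GRCm38, 34119693 to 34316674), which made it possible to set them beside their neighbours. The table holds 11 genes wholly inside this interval. All 7 class II genes of the interval, including H2-DMb2 and H2-Ob, had positive log2 fold changes, from 1.92 to 4.09. The 4 genes between H2-DMb1 and H2-Ob serve class I presentation, as peptide transporter chains and immunoproteasome subunits. None of the 4 was higher without overlap, where 23.2% of all genes were. Of them, Tap1, Tap2 and Psmb8 were lower without overlap, where 25.7% of all genes were. Tap1 had 30.5 and 41.0 FPKM in the libraries labelled CD4creERafl/fl 1 and 2, against 70.1 and 79.3 in ERafl/fl 1 and 2 (log2 fold change -1.05 ± 0.31 SE, limma adjusted p = 0.213). Tap2 had 18.4 and 16.7 FPKM in the libraries labelled CD4creERafl/fl, against 32.9 and 34.5 in ERafl/fl 1 and 2 (-0.90 ± 0.31, adjusted p = 0.263). Psmb8 had 38.0 and 65.4 FPKM in the libraries labelled CD4creERafl/fl, against 83.2 and 139.6 in ERafl/fl 1 and 2 (-1.10 ± 0.42, adjusted p = 0.298). Psmb9 had 30.6 and 82.5 FPKM in the libraries labelled CD4creERafl/fl, against 42.1 and 65.3 in ERafl/fl 1 and 2 (-0.06 ± 0.54, adjusted p = 0.966), and overlapped between the groups. Along the interval, positive fold changes of class II genes thus stood on both sides of the 4 class I pathway genes, and none of the 11 genes passed the test.

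**Figure D4:**
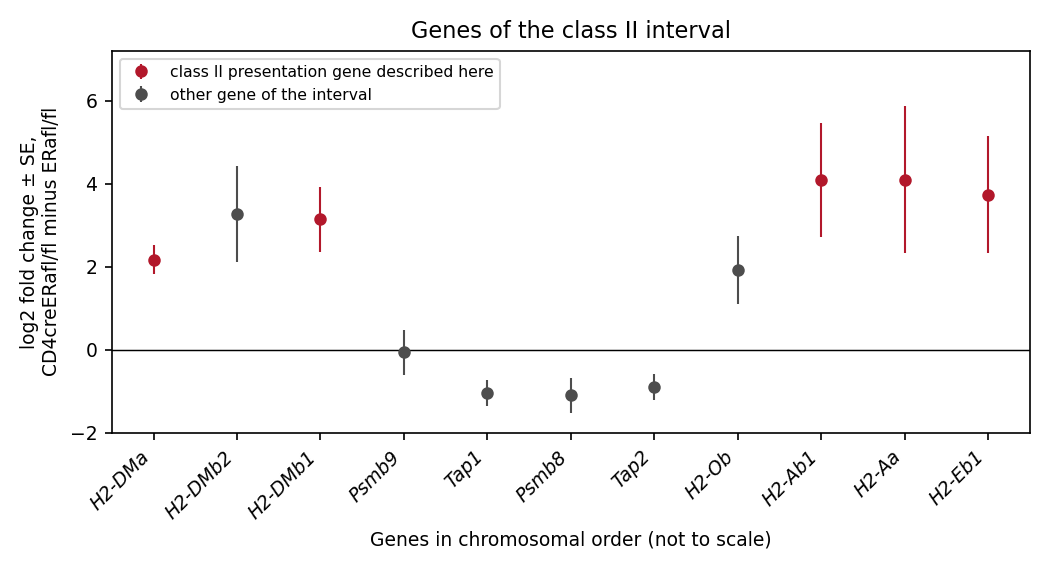
Log2 fold change on log2(FPKM + 1) with its SE, libraries labelled CD4creERafl/fl minus ERafl/fl, for the 11 genes of the table inside the class II interval, in chromosomal order (2 libraries a group). Class II genes on both flanks lie above 0, and the 4 class I pathway genes between them lie at or below 0.

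Promoter sequence is shown because class II genes share a promoter module, an X box bound by RFX and a Y box bound by NF-Y, through which CIITA acts. The RefSeq table for GRCm38.p6 gave windows of 300 bases, from 250 before to 50 after a start, for 4 of the 7 genes (H2-Aa, H2-Eb1, H2-DMb1 and H2-DMa, the last with 2 starts) and for all 4 other class II chains. Motifs were searched on both strands as the Y box core GATTGG, an X box core GNAACNGAT and the cyclic AMP response element TGACGTCA. The X box letters were chosen with these promoters in view. In the sequences below, given 5′ to 3′ on the gene's own strand, capitals mark matches to any of these on either strand.
H2-Eb1: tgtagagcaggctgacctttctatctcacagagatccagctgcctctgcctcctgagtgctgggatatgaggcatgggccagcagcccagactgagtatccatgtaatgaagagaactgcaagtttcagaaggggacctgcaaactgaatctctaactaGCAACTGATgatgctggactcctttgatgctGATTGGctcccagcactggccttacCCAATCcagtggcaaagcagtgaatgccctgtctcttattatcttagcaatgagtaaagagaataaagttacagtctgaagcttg
H2-DMb1: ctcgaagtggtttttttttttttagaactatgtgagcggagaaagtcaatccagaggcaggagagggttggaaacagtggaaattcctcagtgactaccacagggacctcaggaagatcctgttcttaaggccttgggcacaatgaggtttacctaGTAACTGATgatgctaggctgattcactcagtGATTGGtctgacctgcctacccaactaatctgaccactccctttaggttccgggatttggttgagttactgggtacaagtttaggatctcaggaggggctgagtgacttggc
H2-Aa: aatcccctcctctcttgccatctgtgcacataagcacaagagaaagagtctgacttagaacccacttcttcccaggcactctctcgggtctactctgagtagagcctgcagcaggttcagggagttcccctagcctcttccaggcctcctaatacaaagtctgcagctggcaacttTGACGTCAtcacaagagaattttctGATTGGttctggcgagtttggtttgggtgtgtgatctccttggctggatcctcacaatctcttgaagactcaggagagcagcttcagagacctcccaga

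The windows lie at chr17:34305617-34305916 (plus strand) for H2-Eb1, chr17:34152941-34153240 (plus strand) for H2-DMb1 and chr17:34287774-34288073 (minus strand) for H2-Aa. In H2-Eb1 the X core starts 91 bases and the Y core 60 bases before the annotated start, and in H2-DMb1 they start 94 and 62 bases before it. H2-Aa had no match to this X core, but a cyclic AMP response element starts 74 bases and a Y core 49 bases before its start. A second Y core, on the opposite strand, lies in the H2-Eb1 window. The Y core was in 8 of 9 class II windows and in 16.1% of all 32851 promoter windows, and the X core was in 3 of 9 and in 2.05%. An X core followed on the same strand by a Y core, with starts 15 to 45 bases apart, was in 8 windows of the whole table (0.0244%), 3 of them class II genes: H2-Eb1, H2-DMb1 and H2-Eb2. Because the X box letters were chosen with these promoters in view, the higher share of X cores in class II windows follows in part from that choice. A match of letters is a description and not a measured binding site. H2-Eb1 and H2-DMb1, which both hold the pair of boxes, had log2 fold changes of 3.73 and 3.14, while H2-Eb2, which holds it too, had 1.42 ± 0.62 (SE, limma adjusted p = 0.345).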

How the data were processed

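The authors deposited 1 table of FPKM values for 4 libraries. The submitters' processing notes name RSEM, HISAT, Bowtie2 and mm10, with no version given. RSEM shares fragments between similar transcripts by estimate, so a listed 0 can be a failed assignment. NCBI gene identifiers matched the GRCm38.p6 RefSeq table for 16183 of 16230 genes, and 23 symbols that had become dates were restored through them.

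Genes with a mean of at least 1 FPKM (12896) were tested on log2(FPKM + 1) with limma 3.58.1 in R 4.3.3, with group as the only term, a trended empirical Bayes variance, two-sided tests and Benjamini-Hochberg adjustment. A gene was called at an adjusted p under 0.05. Fold changes are the libraries labelled CD4creERafl/fl minus ERafl/fl, and the pseudocount of 1 understates those of low genes. For a single gene, 2 libraries against 2 allow no exact permutation p below 0.33. Fragments were estimated from the FPKM steps of 10204 genes with 1 transcript of more than 800 bases, where 77.8% to 80.0% of values between 0.6 and 6.5 fragments lay within 0.2 of a whole number. Shared exons came from GENCODE M21 and shared sequence from BLAST+ 2.17.0. The limma fit was tested on simulated data with known fold changes.

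Named were the 7 genes, up to 4 genes of each class II list, the first 2 of each marker list, and the 5 nearest to the median profile. The genes, the lists and the rules were chosen with earlier results of these data known. Cd22, Cd79b, Blnk, Fcer2a, Cd209a, Xcr1, Nfyc, Creb1, Brd2, Dexi and the genes of the interval were named outside this rule. Some genes of the lists are not reported here, and the counts leave them out. Alternatives were other pseudocounts, filters, scalings and variance models, a replicate block, leaving out each library, and voom weights. Libraries were not paired: equal numbers name no shared animal or day.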

Additional observations from a re-analysis of the deposited data

How the results depend on the processing

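Each of the 7 genes kept its direction under the 12 alternatives chosen at the start (84 of 84 values), and none was called under them. The groups did not overlap for any of the 7, so a changed pseudocount, filter, variance model, block or left-out library could not reverse a direction. The median log2 fold change of the 7 was 3.57 to 3.85 under the alternatives that kept both ERafl/fl libraries. It was 1.81 without ERafl/fl 1 and 5.92 without ERafl/fl 2, so the size rests on which ERafl/fl library is used. Leaving out 1 library at a time gave medians of 1.81 to 5.92. Over all genes limma called 2 higher and 5 lower. These counts were 0 and 0 with a pseudocount of 0.1, no filter or no trend, and 0 in each direction for each library left out. With a minimum mean of 5 FPKM they were 0 and 4. They stayed at 2 and 5 with median-ratio scaling, quantile scaling or robust empirical Bayes. The unadjusted p was under 0.05 for 1813, 2266 and 1996 genes at the first 3 of these settings. With the replicate number as a block, 0 and 0 genes and 0 of 7 class II genes were called, with 1888 genes at an unadjusted p under 0.05. Deviations of same-numbered libraries from their group means had a correlation of -0.002 across genes, which gives no sign of pairing. With voom weights on recovered fragments, added after the data were seen, 141 genes were called higher and 49 lower, with 3 of 5 class II genes called. The cause of this difference was not tested. This fit covers 6269 genes with 1 transcript, kept above a minimum of summed fragments, against limma's 12896. Unadjusted p values of all 5 class II genes in it were also lower than in limma, for H2-Ab1 0.000305 against 0.0275. Values of ERafl/fl 1 rest on few fragments and limit every ratio to it.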
